A study of Mus musculus with 4 samples.

Results

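Retinoid storage and metabolism was followed here through 8 genes: Rbp4, Stra6l, Lrat, Rdh16, Aldh1a1, Aldh1a7, Cyp26a1 and Cyp26b1. They were taken by symbol, and all 8 were among the 32285 genes of the count matrices. The matrices come from single nuclei of flash-frozen mouse liver, with 2 libraries from mice fasted for 16 to 24 h and 2 libraries from fed mice. Each library was 1 preparation of nuclei from liver pooled over 8 mice. Strain, genotype, sex and age are not given in the sources used here, and whether the 2 preparations of a feeding state shared mice is left unsaid. Tests here therefore measure the spread between preparations, which may be technical.

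Retinol, vitamin A, circulates bound to the carrier encoded by Rbp4, which the liver secretes. Hepatic stellate cells hold most of the body's retinol as esters in lipid droplets, and Lrat encodes the acyltransferase that makes those esters. Retinol can instead be oxidised to retinal by short-chain dehydrogenases such as that of Rdh16. Retinal is oxidised to retinoic acid by aldehyde dehydrogenases such as that of Aldh1a1, and Aldh1a7 is its close rodent relative. Stra6l encodes a membrane receptor for retinol uptake from the carrier in mouse liver. Cyp26a1 and Cyp26b1 encode the cytochromes P450 that break retinoic acid down, and Cyp26a1 is a classic target of the retinoic acid receptors.

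In the GRCm38 annotation, Aldh1a1 lies at chr19:20492715-20643465 on the plus strand and Aldh1a7 at chr19:20692953-20727562 on the minus strand, next to it. Cyp26a1 lies at chr19:37697798-37701536 (plus) and Rbp4 at chr19:38116629-38125281 (minus). Rdh16 lies at chr10:127801152-127846565 (plus), Lrat at chr3:82892579-82903973 (minus), Cyp26b1 at chr6:84571414-84593908 (minus) and Stra6l at chr4:45848664-45887008 (plus). The counting took each gene as a whole, so exons and introns are not separated.

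The 250 bases before 3 of the start sites are shown, from RefSeq on GRCm38.p6, each 5′ to 3′ on the gene's strand. Cyp26a1 (chr19:37697558-37697807) is shown for a direct repeat, in capitals, of the kind that retinoic acid receptors bind. Aldh1a1 (chr19:20601718-20601967) and Aldh1a7 (chr19:20727557-20727806) are shown because they share a long identical run, in capitals, and differ in the levels described further on.
Cyp26a1: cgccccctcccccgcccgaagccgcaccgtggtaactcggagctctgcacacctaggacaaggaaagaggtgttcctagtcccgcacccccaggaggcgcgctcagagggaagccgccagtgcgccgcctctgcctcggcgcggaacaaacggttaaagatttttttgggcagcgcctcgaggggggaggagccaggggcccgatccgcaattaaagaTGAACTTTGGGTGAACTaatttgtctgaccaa
Aldh1a1: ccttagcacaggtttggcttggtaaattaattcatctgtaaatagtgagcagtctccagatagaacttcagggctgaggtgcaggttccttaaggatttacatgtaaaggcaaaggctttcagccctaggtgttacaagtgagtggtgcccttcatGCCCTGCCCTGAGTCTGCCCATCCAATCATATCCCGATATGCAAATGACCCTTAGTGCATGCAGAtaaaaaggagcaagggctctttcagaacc
Aldh1a7: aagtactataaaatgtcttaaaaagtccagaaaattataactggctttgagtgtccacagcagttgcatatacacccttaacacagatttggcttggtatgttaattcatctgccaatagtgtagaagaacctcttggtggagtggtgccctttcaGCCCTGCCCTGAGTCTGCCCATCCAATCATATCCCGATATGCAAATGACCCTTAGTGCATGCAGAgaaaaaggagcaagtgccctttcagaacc
The capitals in Cyp26a1 are the hexamer TGAACT present in 2 copies with 5 bases between them, at positions -32 to -16 from the start site. Direct repeats made of the hexamer AGGTCA, its variant AGTTCA, its variant GGTTCA or its variant GGGTCA were searched on both strands with spacers of 1, 2 and 5 bases. All 8 genes matched the RefSeq table, with 11 promoters, and this was the only repeat found in them. A repeat with spacer 5 was present in 29 of 32851 promoters (0.0883%), one with spacer 1 in 54 and one with spacer 2 in 57. A match in these letters is not evidence of binding. The capitals in Aldh1a1 and Aldh1a7 are 65 identical bases at positions -94 to -30 of both, and the aligned 250-base stretches were 65.3% identical. Their longest open reading frames were 91.6% identical, with a longest shared run of 100 bases. Those of Rdh16 and its neighbour Rdh9 were 96.3% identical, with a shared run of 229 bases. Reads that fall in such runs cannot be assigned with certainty, so levels of these genes carry that uncertainty.

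After filtering, 29829 nuclei formed 19 clusters, drawn without the 8 genes. Clusters were named X-like from marker genes, and the suffix is dropped from here on. Hepatocytes numbered 5506 and 4619 in fasted 1 and fasted 2, against 5116 and 3907 in fed 1 and fed 2. Stellate nuclei numbered 729 and 349 in fasted libraries, against 484 and 89 in fed ones, and endothelial nuclei 2271 and 913, against 1973 and 118. Fed 2 was the shallowest library, with 8078755 UMIs (unique molecular identifiers, 1 per captured transcript) in all, against 22924339 to 30955600 in the others. Of the 10 hepatocyte clusters, 9 took at least 90% of their nuclei from 1 library, so hepatocytes of different libraries sat mostly in different clusters. Fed 1 stood apart by acute-phase genes. Saa1 had 12.6 and 0.921 CPM (UMIs of a gene per 1000000 UMIs summed over a cell type) in fasted hepatocytes, against 388 CPM in fed 1 and 2.17 CPM in fed 2. Values without fed 1 are therefore given beside the results that rest on it. Libraries shared 12 to 42 cell barcodes in pairs, where 5.96 to 16.9 would be shared if barcodes were independent, and every pair was above its own number. The 7 stellate markers summed to 4862 to 7460 CPM in stellate nuclei, against 12.7 to 61.1 CPM in hepatocytes, and the 8 endothelial markers to 5384 to 9770 CPM in endothelial nuclei, against 7.93 to 61.7 CPM in hepatocytes, with no marker at 0 in its own type.

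Lrat was highest in stellate nuclei in every library. Aldh1a1 was highest in stellate nuclei and Cyp26b1 in endothelial nuclei in 3 of 4 libraries, fed 2 being the exception for both. Rbp4, Stra6l and Rdh16 were lower in both of those types than in hepatocytes in every library. Cyp26a1 was close to the detection limit everywhere. CPM from nuclei is not scaled by gene length, so levels are compared for 1 gene between cell types and not between genes.

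**Figure D1:**
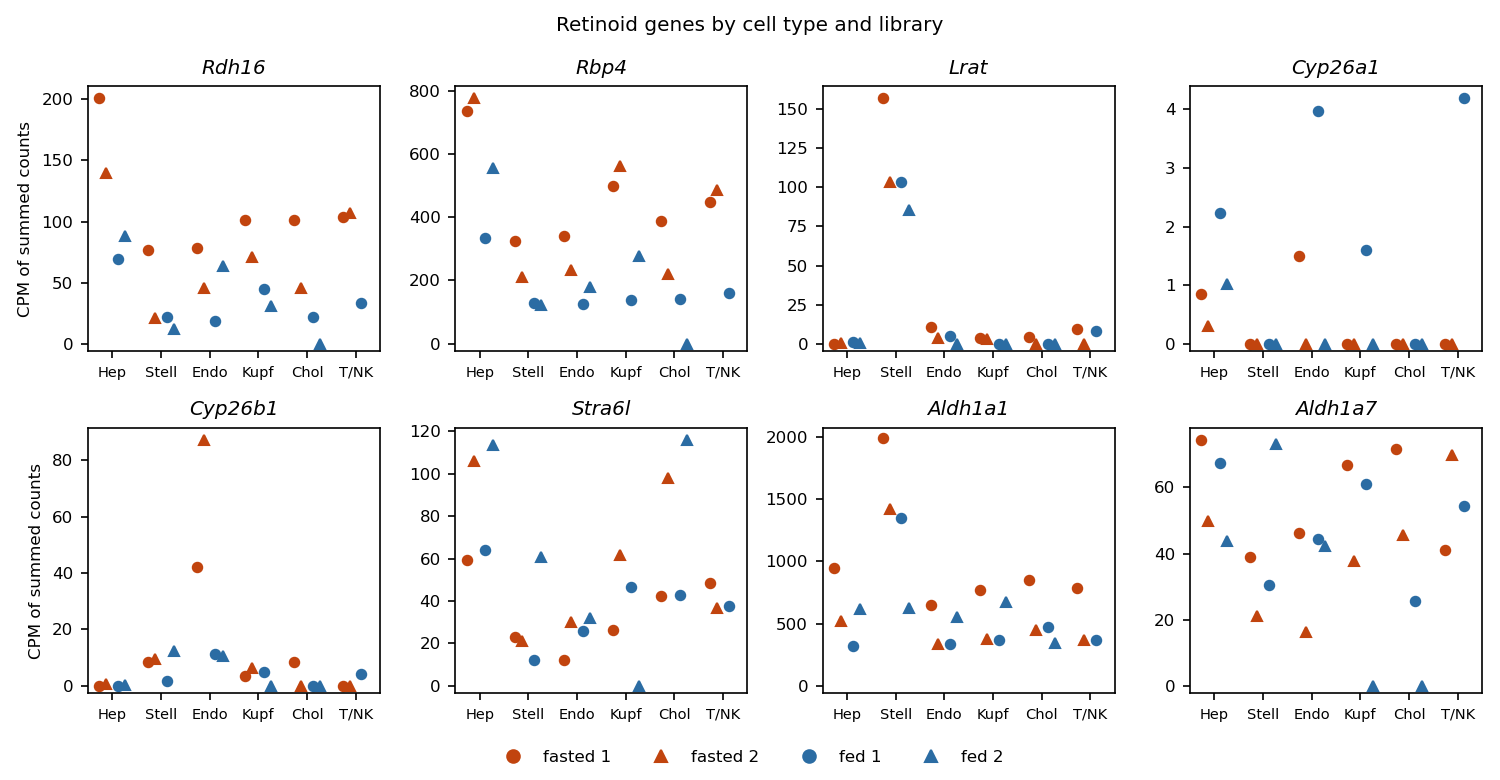
CPM of the 8 genes in the summed nuclei of 6 cell types (Hep, hepatocyte; Stell, stellate; Endo, endothelial; Kupf, Kupffer cell or macrophage; Chol, cholangiocyte; T/NK, T or NK cell), with 1 point per library and fasted libraries (orange) left of fed ones (blue). Populations under 10000 UMIs are not drawn. Lrat stands at 85.3 to 157 CPM in stellate nuclei and at most 10.9 CPM in any other type drawn. The cluster named T or NK was also led by the B-cell genes Ebf1 and Aff3.

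RNA of hepatocyte genes was also counted in the other types. The summed level of 5 abundant hepatocyte genes (Alb, Apob, Fgb, Fga and Serpina3k) in stellate nuclei was 36.8% and 33.4% of its hepatocyte level in fasted libraries, against 28.7% and 46.9% in fed ones. In endothelial nuclei it was 45.4% and 40.3%, against 32.5% and 53.8%. The single genes ranged around these sums, from 24.3% to 116% in stellate and 27% to 119% in endothelial nuclei. A level at or below the summed share is not taken here as the type's own, and may be background from free RNA. One above it may be background too where it lies within the range of the single genes. The source of this RNA was not tested. Whether counts were corrected for free RNA before deposit is not known here, and such a step would change these shares.

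The carrier and the uptake receptor were lower in stellate nuclei than in hepatocytes. Rbp4 had 326 and 211 CPM in stellate nuclei of fasted libraries, against 127 and 122 CPM in fed ones, and 738 and 776 CPM in hepatocytes of fasted libraries, against 334 and 555 CPM in fed ones. Its stellate level was 44.2% and 27.2% of its hepatocyte level in fasted libraries, against 38.2% and 22.0% in fed ones, above the share of the 5 hepatocyte genes in fasted 1 and fed 1 and below it in the other libraries. Stra6l had 23.1 and 21.1 CPM in stellate nuclei of fasted libraries, against 11.9 and 60.9 CPM in fed ones, where fed 2 rests on 5 UMIs. In hepatocytes Stra6l had 59.2 and 106 CPM in fasted libraries, against 64.0 and 114 CPM in fed ones. Its stellate share was 39.1% and 19.9% in fasted libraries, against 18.6% and 53.6% in fed ones, above that of the 5 genes in fasted 1 and fed 2. In cholangiocytes Stra6l stood at 71.2% and 92.2% of its hepatocyte level in fasted libraries (10 and 15 UMIs). In fed ones it stood at 67.1% and 102% (10 and 2 UMIs), with 116 CPM in fed 2. The 5 hepatocyte genes summed there to 44.9% and 31.8% in fasted libraries, against 29.8% and 52.3% in fed ones, with single genes up to 91.4% in fasted 1. Other members stood high in cholangiocytes too. Aldh1a1 was at 89.6% and 86.5% in fasted libraries, against 148% and 56.4% in fed ones, and Aldh1a7 at 96.5% and 91.5%, against 38.3% and 0%.

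In edgeR's quasi-likelihood test with library as a block (adjusted p under 0.05 called), 5 of the 6 tested genes differed between stellate nuclei and hepatocytes, where 45.1% of all tested genes were called. Lrat, the only one called higher in stellate nuclei (19.3% of all genes were), had a log2 fold change of 8.20 (SE 0.59, adjusted p = 2.08e-05). The 4 called lower (25.8% of all genes were) were Rbp4, by log2 -1.72 (SE 0.15, adjusted p = 3.55e-09), Rdh16, Stra6l and Aldh1a7, with log2 fold changes of -1.97, -1.97 and -1.06. Direction was the same in all 4 libraries for 50.4% of all genes. Cyp26a1 and Cyp26b1 had too few counts for the test.

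Lrat, the enzyme that esterifies retinol, had 157 and 103 CPM in stellate nuclei of fasted libraries (129 and 44 UMIs), against 104 and 85.3 CPM in fed ones (61 and 7 UMIs). In hepatocytes it had 0.0467 and 0.153 CPM in fasted libraries (1 and 3 UMIs), against 0.824 and 0.578 CPM in fed ones (14 and 4 UMIs). The populations did not overlap in any library, and stellate values were higher in all 4. For shares at 1000 UMIs per nucleus, shallower nuclei were left out, which kept 375 and 218 stellate nuclei in fasted libraries, against 298 and 17 in fed ones. A Lrat UMI was seen in 14.7% and 7.80% of those in fasted libraries, against 8.39% and 11.8% in fed ones. The fed 2 share rests on 2 nuclei. Without thinning, over all stellate nuclei, the shares were 14.0% and 11.5%, against 10.7% and 7.87%. In hepatocytes, a type that should lack Lrat, the thinned share was at most 0.101%, with median depths of 1275 to 3238 UMIs per hepatocyte and 785 to 1098 per stellate nucleus.

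Lrat was also counted at low levels in other types. In endothelial nuclei Lrat had 10.9 and 3.48 CPM in fasted libraries, against 5.12 and 0 CPM in fed ones. That was 6.95%, 3.38%, 4.94% and 0% of its stellate level in fasted 1, fasted 2, fed 1 and fed 2, where 7 stellate markers summed to 5.68%, 5.01%, 4.36% and 4.13% of theirs. In hepatocytes the same shares were 0.0297% and 0.149% for Lrat in fasted libraries, against 0.795% and 0.678% in fed ones, beside 0.308% and 0.200% for the markers in fasted libraries, against 0.688% and 1.26% in fed ones. Both the Lrat share and the marker share in hepatocytes were thus higher in the fed libraries. In T or NK nuclei the Lrat share was 6.17% in fasted 1 (4 UMIs), against 8.09% in fed 1 (2 UMIs). The marker shares there were 2.47% in fasted 1, against 2.35% in fed 1. T or NK nuclei of fasted 2 and fed 2 held 0 Lrat UMIs. In Kupffer cells and cholangiocytes of fed 1 the Lrat share was 0%, beside 2.77% and 3.95% for the markers.

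Aldh1a1, which makes retinoic acid, was not specific to 1 type. It had 1990 and 1423 CPM in stellate nuclei of fasted libraries, against 1349 and 621 CPM in fed ones, and 947 and 521 CPM in hepatocytes of fasted libraries, against 320 and 616 CPM in fed ones. The stellate level was 210%, 273% and 421% of the hepatocyte level in fasted 1, fasted 2 and fed 1, above the share of the 5 hepatocyte genes, and 101% in fed 2, whose stellate value rests on 51 UMIs. The log2 fold change, stellate over hepatocyte, was 1.05 (SE 0.39) and missed the threshold (adjusted p = 0.109, edgeR). DESeq2, which called 36.8% of all genes, gave an adjusted p of 0.00798, and edgeR without fed 2 gave 1.36 with an adjusted p of 2.99e-05. In endothelial nuclei Aldh1a1 was lower, with 653 and 338 CPM in fasted libraries, against 336 and 550 CPM in fed ones (log2 -0.54, SE 0.14, adjusted p = 0.00283). The direction was not shared by fed 1, which had 336 CPM in endothelial nuclei, against 320 CPM in hepatocytes.

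Aldh1a7 did not follow Aldh1a1. In stellate nuclei it had 39.0 and 21.1 CPM in fasted libraries, against 30.6 and 73.1 CPM in fed ones, and in hepatocytes 74.3 and 49.9 CPM, against 67.3 and 43.8 CPM. It was below its hepatocyte level in 3 of 4 libraries, the exception being fed 2 with 6 stellate UMIs. Its stellate share was 52.4% and 42.3% in fasted libraries, against 45.4% and 167% in fed ones, above that of the 5 hepatocyte genes in every library. In fasted 1, fasted 2 and fed 1 it lay within the range of those single genes. The log2 fold change was -1.06 (SE 0.25, adjusted p = 0.00109, edgeR). The 2 neighbouring genes were also correlated across 24 points, 4 libraries by 6 populations. These were pericentral, middle and periportal hepatocytes (placed as described further on), and stellate, endothelial and Kupffer nuclei. The log2(CPM + 1) values had a Pearson r of -0.13, given as a description because points of 1 library share depth and free RNA.

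Cyp26b1, which degrades retinoic acid, was higher in endothelial nuclei than in hepatocytes. It had 42.2 and 87.1 CPM there in fasted libraries (85 and 75 UMIs), against 11.4 and 10.6 CPM in fed ones (20 UMIs and 1 UMI). Hepatocytes had 0 and 0.511 CPM in fasted libraries, against 0.0589 and 0.144 CPM in fed ones, from 12 UMIs in all. All 6 tested genes differed between endothelial nuclei and hepatocytes, where 53.2% of all tested genes did, and DESeq2 also called all 6 (46.7% of all genes). Cyp26b1 was the one called higher (22.3% of all genes were), by log2 7.66 (SE 0.49, adjusted p = 1.36e-09, edgeR). The other 5 were called lower (30.8% of all genes were), with log2 fold changes of -1.99 for Stra6l, -1.73 for Rdh16, -1.66 for Rbp4, -1.01 for Aldh1a7 and -0.54 for Aldh1a1.

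Stellate nuclei also held some Cyp26b1, at 8.52 and 9.38 CPM in fasted libraries, against 1.70 and 12.2 CPM in fed ones, from 13 UMIs in all. In fasted 1, fasted 2 and fed 1 that was 20.2%, 10.8% and 14.9% of the endothelial level, where 8 endothelial markers summed to 5.59%, 2.98% and 5.93% of theirs. The fed 1 share rests on 1 UMI. Other types were above the marker share too, such as Kupffer cells with 8.07% and 7.24% in fasted libraries, against 42.4% in fed 1, beside 3.72% and 3.34% for the markers in fasted libraries, against 5.23% in fed 1. The stellate values per library lie within wide counting intervals (exact Poisson, 95%), such as 3.43 to 17.6 CPM in fasted 1. All such intervals cover counting error only.

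Cyp26a1, the other breakdown enzyme, had 81 UMIs over the 6 named cell types, of which 69 lay in hepatocytes. No stellate nucleus held a UMI in any library, which allows up to 3.65 and 7.03 CPM in fasted libraries, and up to 5.10 and 36.6 CPM in fed ones (3 counts per library). These limits lie above the hepatocyte level in every library, so absence from stellate nuclei was not detectable at this depth. Endothelial nuclei held 10 UMIs, 7 of them in fed 1. Per UMI summed, they had 1.49 and 0 CPM in fasted libraries, against 3.98 and 0 CPM in fed ones. Hepatocytes had 0.841 and 0.307 CPM in fasted libraries, against 2.24 and 1.01 CPM in fed ones. By CPM, hepatocytes were thus above endothelial nuclei in fasted 2 and fed 2, where endothelial nuclei held 0 UMIs, and below them in fasted 1 and fed 1. With so few endothelial UMIs, these CPM do not place the gene in hepatocytes above endothelial nuclei.

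Hepatocytes were then placed between the portal vein and the central vein. A score was made from 10 pericentral and 10 periportal landmark genes, none of them among the 8. It was computed per nucleus on counts thinned to 1500 UMIs, so nuclei with fewer UMIs were left out. This kept 4876 and 4267 hepatocytes in fasted libraries, against 4372 and 1600 in fed ones. Fed 2 thus lost most of its 3907 hepatocytes. The scored nuclei of each library were split into equal bins. Of 5 tested genes, 2 were called between the pericentral and the periportal bin of 3, where 16.6% of all tested genes were. Aldh1a1 was higher near the central vein and Stra6l lower, and Rdh16 was higher there in all 4 libraries without passing the test. Rbp4 and Aldh1a7 were close to even.

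**Figure D2:**
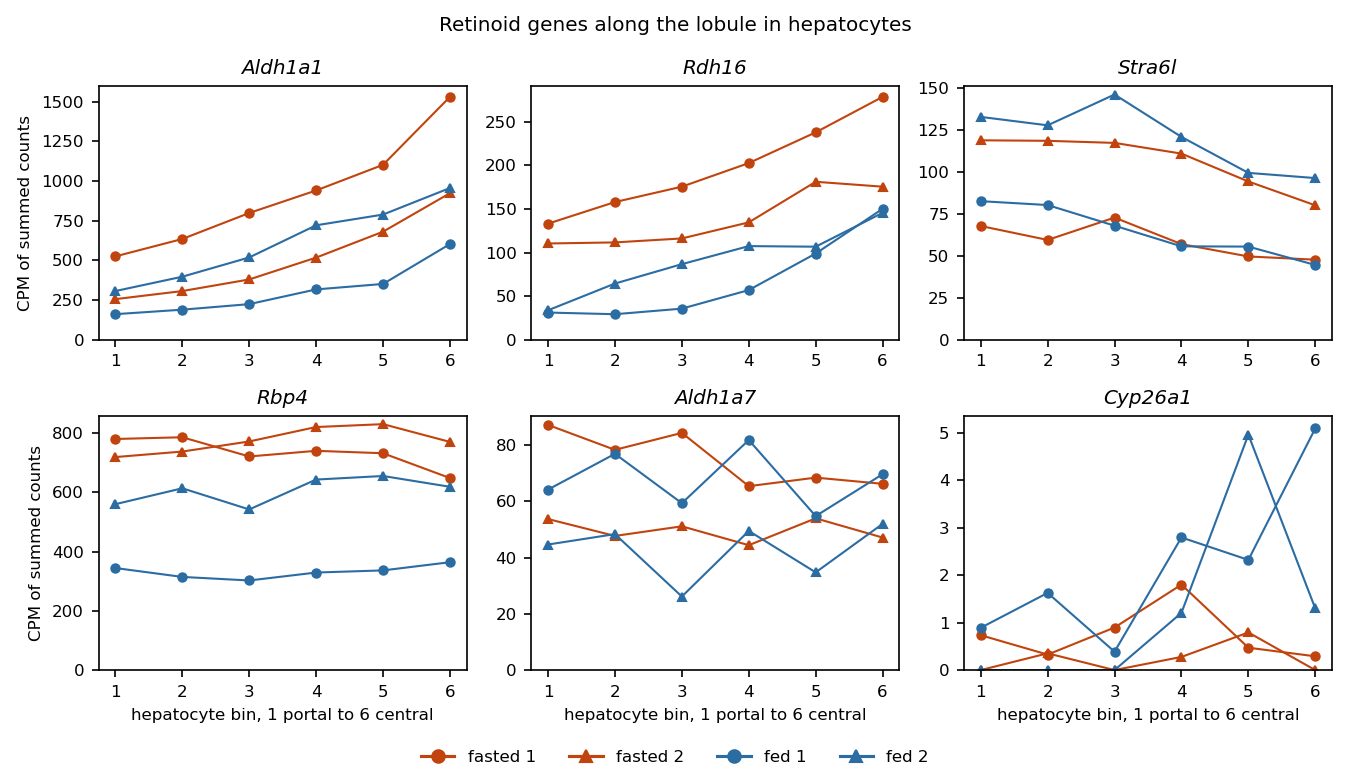
CPM of 6 retinoid genes in hepatocytes split by lobule score into 6 bins of equal size, from the portal (1) to the central (6) end, with 1 line per library (fasted orange, fed blue). Aldh1a1 climbs in every library, Stra6l declines toward the central end, and Rdh16 lines of fasted libraries lie above those of fed ones in every bin.

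Aldh1a1 had 1294 and 789 CPM in the pericentral bin of fasted libraries, against 476 and 871 CPM in fed ones. In the periportal bin it had 583 and 282 CPM in fasted libraries, against 176 and 352 CPM in fed ones. Each library was higher at the central end, by 2.22, 2.79, 2.70 and 2.47 times in fasted 1, fasted 2, fed 1 and fed 2. The log2 difference was 1.34 (SE 0.065, adjusted p = 5.41e-11, edgeR with library as a block), in a direction that 8.34% of all genes passed. With 6 bins the level went up at each step in all 4 libraries, and the most central bin of fasted 1 reached 1531 CPM, against 525 CPM in its most portal one.

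Its neighbour Aldh1a7 lacked that gradient. It had 67.4 and 50.9 CPM in the pericentral bin of fasted libraries, against 62.1 and 43.2 CPM in fed ones. Periportal values were 82.4 and 50.6 CPM in fasted libraries, against 70.8 and 46.5 CPM in fed ones. The difference was -0.16 (95% interval -0.33 to 0.01, adjusted p = 0.226), an interval that excludes the size found for Aldh1a1. The shared 65 bases before the start sites shown above were thus found beside 2 different profiles.

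Stra6l ran the other way. It had 48.7 and 87.8 CPM in the pericentral bin of fasted libraries, against 50.0 and 97.7 CPM in fed ones, and 63.3 and 118 CPM in the periportal bin of fasted libraries, against 81.2 and 130 CPM in fed ones. Every library was lower at the central end, and the log2 difference was -0.49 (SE 0.075, adjusted p = 1.16e-04), in a direction that 8.23% of all genes passed. Rbp4 had 694 and 803 CPM in the pericentral bin of fasted libraries, against 350 and 637 CPM in fed ones. In the periportal bin it had 783 and 728 CPM, against 329 and 587 CPM. The difference of 0.03 had a 95% interval of -0.10 to 0.17 (adjusted p = 0.807).

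Rdh16, which oxidises retinol, had 256 and 179 CPM in the pericentral bin of fasted libraries, against 124 and 126 CPM in fed ones. In the periportal bin it had 146 and 111 CPM in fasted libraries, against 30.2 and 49.2 CPM in fed ones. The central bin was higher in all 4 libraries, a direction shared by all libraries for 32.1% of all genes either way. The log2 difference was 1.1 (SE 0.28) with an adjusted p of 0.108 in edgeR and 3.42e-07 in DESeq2, which called 11.8% of all genes. Without fed 1, which had the steepest ratio, it was 0.83 with an adjusted p of 1.87e-06, and without fasted 2 it was 1.31 with an adjusted p of 0.031.

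Cyp26a1 was too rare for that test. Pericentral hepatocytes held 3 and 3 UMIs in fasted libraries (0.390 and 0.441 CPM), against 22 and 5 UMIs in fed ones (3.69 and 3.17 CPM). Periportal ones held 3 UMIs and 1 UMI in fasted libraries (0.519 and 0.182 CPM), against 6 and 0 UMIs in fed ones (1.28 and 0 CPM). Most of the fed UMIs thus came from the pericentral bin. Lrat and Cyp26b1 in scored hepatocytes were at 0 to 6 UMIs per bin and library.

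**Figure D3:**
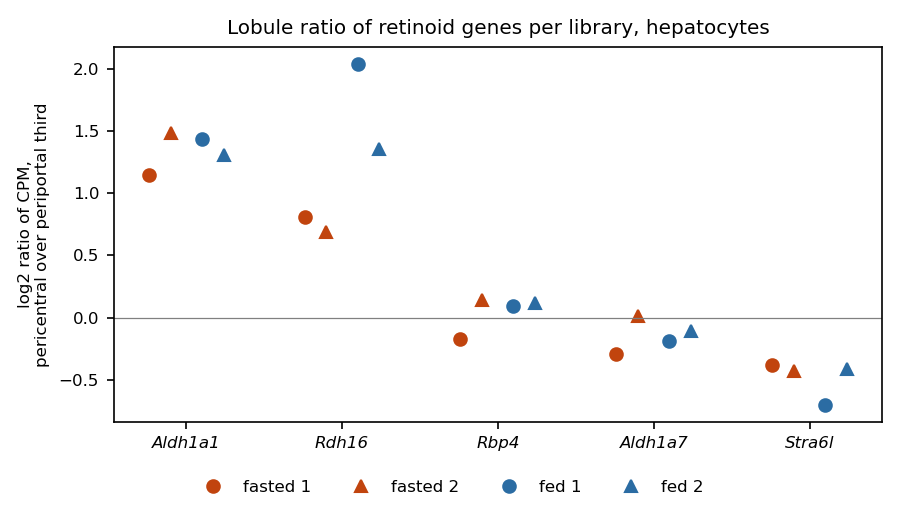
Log2 ratio of CPM in the pericentral over the periportal bin of hepatocytes, 1 point per library (fasted orange, left; fed blue, right). Rdh16 lies at 0.81 and 0.69 in fasted libraries and at 2.04 and 1.35 in fed ones, while the points of the other 4 genes overlap between feeding states. The share of all genes whose points separate by feeding state was not computed.

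Relative to its portal level, Rdh16 rose less toward the central vein in fasted livers. Its log2 ratio, pericentral over periportal, was 0.81 and 0.69 in fasted libraries, against 2.04 and 1.35 in fed ones. The test of position by feeding gave -1.05 (SE 0.17, 95% interval -1.40 to -0.71, adjusted p = 0.0036, edgeR), the only call among 6 tested genes where 0.348% of all genes were called and 0.186% of all genes were called lower. Mean levels were 217 CPM at the central end and 129 CPM at the portal end in fasted livers, against 125 and 39.7 CPM in fed ones. The fasted mean was thus 1.74 times the fed mean at the central end, 2.19 times in the middle and 3.24 times at the portal end. The result is about the ratio between the ends, and the step in CPM between them was not tested. Glul, a pericentral landmark of the score, had log2 ratios of 3.77 and 5.13 in fasted libraries, against 5.02 and 6.54 in fed ones. Those of Cyp2f2, a periportal landmark, were -2.82 and -3.52, against -3.02 and -3.66. Whether the bins were separated less sharply in fasted libraries was not tested. The call was lost in DESeq2 (-0.99, adjusted p = 0.379, with 0.0242% of all genes called) and without fed 1 (-0.59, adjusted p = 0.157), where the lone fed library is assumed to vary like the others. Within fed 1, Rdh16 had 37.4 and 34.4 CPM in its 2 clusters led by acute-phase genes, against 70.6 CPM in its largest hepatocyte cluster. The part of the acute-phase nuclei in the result was not tested.

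For the other genes the gradient was not shown to differ with feeding. The position-by-feeding term was -0.06 for Aldh1a1 (95% interval -0.31 to 0.19), 0.17 for Stra6l (-0.13 to 0.47), -0.12 for Rbp4 (-0.36 to 0.12) and 0.00 for Aldh1a7 (-0.33 to 0.34). For Cyp26a1 the term was -1.71, with an interval from -4.84 to 1.42 that leaves either direction possible.

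Endothelial and stellate nuclei gave no firm axis. A score from 4 central-vein-side and 5 portal-side endothelial landmarks was made on counts thinned to 500 UMIs. Correlations between its split landmark sets were only 0.10 to 0.18 across nuclei, against 0.57 to 0.70 in hepatocytes. The hepatocyte values come from 1500 UMIs and 10 landmarks per side, so depth and landmark number differ between them. None of the 5 tested genes was called between the endothelial bins by edgeR, where 1.26% of all genes were, and DESeq2 called none of them and 0.353% of all genes. Only Cyp26b1 had an unadjusted p under 0.05, with 40.0 and 120 CPM on the central side in fasted libraries, against 22.0 and 0 CPM in fed ones. On the portal side it had 37.4 and 65.6 CPM in fasted libraries, against 8.54 and 0 CPM in fed ones. Its log2 difference was 0.60 (SE 0.29, adjusted p = 0.617). For stellate nuclei the correlation was -0.02 to 0.10, so no test was made. Lrat had 180 and 88.6 CPM in the central-side stellate bin of fasted libraries, against 110 and 113 CPM in fed ones, and 154 and 86.2 CPM in the portal-side bin, against 121 and 32.2 CPM.

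Fasted and fed livers were compared within each cell type to ask how feeding state bears on these genes. In hepatocytes Rdh16 and Rbp4 had higher values, and Lrat and Cyp26a1 lower values, in each fasted library than in either fed one. In stellate nuclei Rbp4 and Aldh1a1, and in endothelial nuclei Rbp4 and Cyp26b1, had higher values in each fasted library. None of these differences passed the test over all genes. In bulk sums of a type, fewer expressing nuclei and less RNA per nucleus cannot be told apart.

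**Figure D4:**
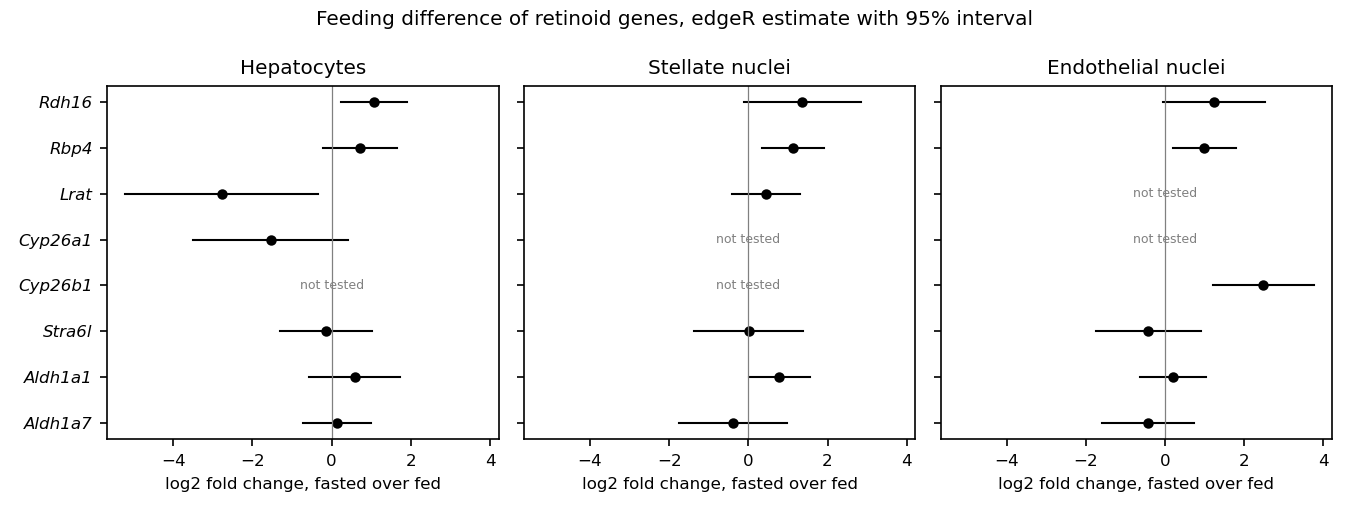
Log2 fold change, fasted over fed, of the 8 genes in hepatocytes, stellate nuclei and endothelial nuclei (point) with the 95% interval of edgeR's quasi-likelihood fit (line), 2 libraries per group. Endothelial Cyp26b1 lies highest, at 2.49 with an interval of 1.21 to 3.77.

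In hepatocytes 7 genes could be tested and edgeR called 0 of them, where it called 1 of 14129 genes (0.00708%) and 950 genes had an unadjusted p under 0.05. Of the 7, Rdh16 and Lrat had an unadjusted p under 0.05. DESeq2 called 0 of the 5 it gave an adjusted p, and 1.13% of all genes. Rdh16 had 201 and 140 CPM in fasted libraries, against 69.6 and 87.8 CPM in fed ones, with no overlap (log2 1.07, SE 0.34, adjusted p = 0.637). Rbp4 had 738 and 776 CPM in fasted libraries, against 334 and 555 CPM in fed ones, also with no overlap (log2 0.72, SE 0.38, adjusted p = 0.806). Without fed 1 the values were 0.85 for Rdh16 and 0.36 for Rbp4, and without fed 2 they were 1.32 and 1.22. The fed 1 library held the acute-phase hepatocytes, and the part of the acute-phase genes of fed 1 in these differences was not tested. Groups without overlap were 36.1% of all genes, and 4 of the 7 here.

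Aldh1a1 overlapped between groups, at 947 and 521 CPM in fasted libraries, against 320 and 616 CPM in fed ones (log2 0.58, 95% interval -0.57 to 1.73). Stra6l had 59.2 and 106 CPM in fasted libraries, against 64.0 and 114 CPM in fed ones, with replicate 2 above replicate 1 in both states (log2 -0.14, interval -1.29 to 1.01). Aldh1a7 had 74.3 and 49.9 CPM in fasted libraries, against 67.3 and 43.8 CPM in fed ones (log2 0.13, interval -0.72 to 0.99). Intervals of this width do not show that the genes were alike in both states.

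The rarest tested genes, Cyp26a1 and Lrat, had lower values in fasted hepatocytes. Cyp26a1 had 0.841 and 0.307 CPM in fasted libraries (18 and 6 UMIs), against 2.24 and 1.01 CPM in fed ones (38 and 7 UMIs). Its exact Poisson intervals were 0.498 to 1.33 and 0.113 to 0.668 CPM in fasted libraries, against 1.58 to 3.07 and 0.407 to 2.08 CPM in fed ones, so those of fasted 1 and fed 2 overlap. The log2 fold change was -1.54 (SE 0.81, adjusted p = 0.806). Lrat, at 1 and 3 UMIs in fasted libraries, against 14 and 4 in fed ones, had a log2 fold change of -2.78 (SE 1.01, adjusted p = 0.680). With stored zeros counted as 1 the Lrat value was -0.37, and over all alternatives it lay between -3.77 and -0.37. The stellate marker share given above moved with it, and its part in the difference was not tested.

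In stellate nuclei edgeR called 0 of 6 tested genes, where it called 10 of 7231 genes (0.138%) and 312 had an unadjusted p under 0.05, and DESeq2 called 0 of the 6 and 0.124% of all genes. Of the 6, Rbp4 and Aldh1a1 had an unadjusted p under 0.05. Lrat overlapped between groups, with a log2 fold change of 0.45 (95% interval -0.41 to 1.31, adjusted p = 1.00). Aldh1a1 did not overlap, at 1990 and 1423 CPM in fasted libraries, against 1349 and 621 CPM in fed ones, with a log2 fold change of 0.79 (interval 0.01 to 1.57, adjusted p = 1.00). Without fed 1 it was 1.45 and without fed 2, whose value rests on 51 UMIs, it was 0.39. Rbp4 did not overlap either (log2 1.13, SE 0.37, adjusted p = 0.628), and its hepatocyte level was higher in the same libraries. The part of free RNA in that difference was not tested. Groups without overlap were 32.2% of all genes, and 2 of the 6 here. Rdh16 had a log2 fold change of 1.37 (SE 0.70), with 21.1 CPM in fasted 2, against 22.1 CPM in fed 1.

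In endothelial nuclei edgeR called 0 of 6 tested genes, where it called 17 of 9913 genes (0.171%) and 446 had an unadjusted p under 0.05, and DESeq2 called 0 of the 6 and 0.171% of all genes. Of the 6, Rbp4 and Cyp26b1 had an unadjusted p under 0.05. Groups without overlap were 32.9% of all genes, and 2 of the 6 here, Rbp4 and Cyp26b1. Endothelial Rbp4 was at 46.2% and 30.2% of its hepatocyte level in fasted libraries, against 37.8% and 32.4% in fed ones, beside 45.4% and 40.3% for the 5 hepatocyte genes in fasted libraries, against 32.5% and 53.8% in fed ones. Its hepatocyte level was higher in the same libraries, and the part of free RNA in its difference was not tested. Cyp26b1 had 42.2 and 87.1 CPM in fasted libraries, against 11.4 and 10.6 CPM in fed ones. The fitted difference was 2.49 on the log2 scale (SE 0.61, unadjusted p = 7.78e-04, adjusted p = 0.194, edgeR; adjusted p = 0.678, DESeq2). Fed 2 rests on 1 UMI, with an interval of 0.268 to 58.9 CPM. Without fed 2 the value was 2.47 with an adjusted p of 0.00823, from 1 fed library assumed to vary like the others, and over the 11 alternatives tried the value lay between 1.91 and 2.93, with adjusted p from 0.00568 to 1.00.

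Endothelial nuclei of fed 1 lay mostly in another cluster than those of the other 3 libraries. Cluster 2, led by Stab2 and Bmp6, held 2174 and 895 of the endothelial nuclei in fasted libraries, against 165 and 81 in fed ones. Cluster 6, led by Stox2 and Egfl7, held 97 and 18 in fasted libraries, against 1808 and 37 in fed ones. Cyp26b1 had 43.9 and 87.3 CPM in cluster 2 in fasted libraries, against 0 and 15.2 CPM in fed ones (0 UMIs and 1 UMI). In cluster 6 it had 0 UMIs among 97 nuclei of fasted 1 and 1 UMI among 18 nuclei of fasted 2, against 12.3 CPM in fed 1 and 0 UMIs in fed 2. In fed 1 the cluster and the library cannot be told apart.

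The rest of the pathway was read from a list of 60 further retinoid genes, of which 58 were in the files. None was called for feeding by edgeR in hepatocytes (44 tested), stellate nuclei (29) or endothelial nuclei (36). An unadjusted p under 0.05 was found for 7, 3 and 4 of them in those types, where it was found for 950 of 14129, 312 of 7231 and 446 of 9913 genes. DESeq2 called 2, 1 and 0 of them (Retsat and Cyp2c39 in hepatocytes, and Aox3 in stellate nuclei), where it called 1.13%, 0.124% and 0.171% of all genes. The median log2 fold changes were 0.04, 0.09 and 0.07, against -0.01, 0.02 and 0.04 over all genes. The list's largest hepatocyte difference was Retsat, which saturates retinol, at 39.5 and 40.3 CPM in fasted libraries, against 5.47 and 7.80 CPM in fed ones (log2 2.56, SE 0.41, adjusted p = 0.356 in edgeR and 6.1e-05 in DESeq2). Pnpla3, a lipase that releases retinyl esters in human stellate cells, had 0.0934 and 0.460 CPM in fasted hepatocytes, against 2.35 and 0.867 CPM in fed ones (log2 -2.56, SE 1.00, adjusted p = 0.728).

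Along the lobule, 10 of 40 tested list genes were higher and 6 lower in pericentral hepatocytes, where 8.34% of all genes were higher and 8.23% lower, with a median of -0.10 against -0.01 over all genes. Rdh9, the close relative of Rdh16, was the steepest, at 39.6 and 26.6 CPM in the pericentral bin of fasted libraries, against 22.8 and 34.9 CPM in fed ones. In the periportal bin it had 3.63 and 1.09 CPM in fasted libraries, against 1.28 and 3.37 CPM in fed ones (log2 3.81, SE 0.20, adjusted p = 1.34e-10). Aox1, an aldehyde oxidase, was also higher (log2 0.99, SE 0.063, adjusted p = 2.35e-09). Rdh16f2, another relative, was lower near the central vein (log2 -0.56, SE 0.077, adjusted p = 2.98e-05), as was Bco1, which cleaves carotene (log2 -1.39, SE 0.34, adjusted p = 0.0073). Bco1 was rare in hepatocytes beside its stellate level, given below. The 7 stellate markers stood in hepatocytes at 0.308% and 0.200% of their stellate level in fasted libraries, against 0.688% and 1.26% in fed ones. The part of free stellate RNA in the Bco1 difference was not tested. Rdh16 shares long runs with Rdh9, and reads that fall in them were not separated.

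Between cell types, stellate nuclei had 5 of 42 tested list genes higher and 22 lower than hepatocytes, where 19.3% of all genes were higher and 25.8% lower, with a median of -0.71 against -0.17 over all genes. Among the higher ones were Rarg, Rarb, Bco1 and Aldh1a3. Bco1 had 145 and 150 CPM in stellate nuclei of fasted libraries, against 136 and 122 CPM in fed ones, beside at most 5.63 CPM in hepatocytes (log2 5.29, SE 0.29, adjusted p = 1.06e-09). Rarb, a retinoic acid receptor, had a log2 fold change of 3.85 (SE 0.34, adjusted p = 4.15e-04). Endothelial nuclei had 7 of 41 higher and 25 lower, where 22.3% of all genes were higher and 30.8% lower, with a median of -0.91 against -0.16 over all genes, and the highest were Akr1b8, an aldo-keto reductase, at log2 6.85 (SE 0.48) and Rarg, a retinoic acid receptor, at log2 6.32 (SE 0.26).

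The genes whose levels were most like each member's were taken by Pearson r of log2(CPM + 1) over the same 24 points, among 10806 genes with a mean of at least 5 CPM. Lrat was closest to Gm6277, Ptprt and Tnxb (r of 0.98, 0.97 and 0.97), and Cyp26b1 to Bmp6, Eml1 and Zdhhc1 (0.95, 0.95 and 0.94). Rdh16 was closest to Abcb4 and Nr1i3 (0.93 and 0.90), Rbp4 to Slc47a1 (0.96), and Stra6l to Platr22 and Pxylp1 (0.97 and 0.95). Aldh1a7 was closest to Nsun2 and Sepsecs (0.98 and 0.95). Aldh1a1 had no near match, with Fign at 0.83 and Papss2 at 0.78, and Cyp26a1 lay under the minimum level.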

How the data were processed

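UMI counts per gene and nucleus were measured in 4 libraries of nuclei. Per the submitters' processing notes, the authors used Cell Ranger 6.0 and mm10; the sources used here do not say whether intronic reads were counted. The deposited matrices hold UMI counts in whole numbers, and 13.2% to 17.0% of stored entries were 0. The sources used here do not account for these zeros, nor say whether counts were corrected for free RNA before deposit.

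Barcodes passed with 500 or more genes and a mitochondrial share of 5% or less. Scrublet scored doublets; its automatic threshold marked 1779 and 1 in fasted libraries, against 1 and 0 in fed ones, so the top-scoring 0.8% per 1000 barcodes were removed (1108 and 450, against 758 and 233). Clusters came from scanpy 1.11.5 and leidenalg 0.10.2 (2000 variable genes, 30 components, 15 neighbours, resolution 1). A name needed 3 markers detected in 10% of nuclei. Unnamed clusters (3, with 352 nuclei) were left out, 1 of them (129 nuclei) by a rule chosen after seeing the data, because its leading genes were another type's.

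Counts were summed per library and type or bin and fitted over all genes in edgeR 4.0.16 (trimmed mean of M values, filterByExpr, robust quasi-likelihood F test, Benjamini-Hochberg, threshold 0.05), with DESeq2 1.42.0 as the alternative. Standard errors come from the fold change and its F statistic. The fit was tested on simulated data. The members and lists were chosen with earlier results of these data known. Named list genes were those that passed (at most 12 per comparison, the smallest p-values) plus the 4 largest by size, of which examples are printed; some are not reported here.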

Additional observations from a re-analysis of the deposited data

Results flagged for a closer look

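One result stood out by a test of the difference itself. The lobule ratio of Rdh16 in hepatocytes differed between fasted and fed livers. The position-by-feeding term was -1.05 on the log2 scale (edgeR, adjusted p = 0.0036). The ratio was lower in 2 of 2 fasted libraries than in 2 of 2 fed ones, and the share of all genes that separate so was not computed. The pericentral over periportal log2 ratio was 0.81 and 0.69 in fasted libraries, against 2.04 and 1.35 in fed ones. Fed 1, the library with acute-phase hepatocytes, had the steepest ratio. For the pericentral landmark Glul the log2 ratio was 3.77 and 5.13 in fasted libraries, against 5.02 and 6.54 in fed ones. The call was lost in DESeq2 (adjusted p = 0.379). It was also lost without fed 1, where the term was -0.59.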

How the results depend on the processing

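Of the results counted over the 8 genes, 83 recomputed values lay within 1.5 times the reported count and 5 did not. Endothelial feeding calls, 0 as reported, were 1 without a filter on low counts and 0 to 1 when single libraries were left out. Position-by-feeding calls, 1 as reported, were 0 in DESeq2 and 0 to 1 when single libraries were left out. Over all genes, feeding calls were 264, 25 and 48 without that filter in hepatocytes, stellate and endothelial nuclei, against 1, 10 and 17 with it, and DESeq2 called 160 in hepatocytes. Position-by-feeding calls were 43, against 125 without the filter and 3 in DESeq2, and endothelial position calls 82, against 23 in DESeq2. Leaving out single libraries gave 4 to 455, 2 to 57 and 10 to 92 feeding calls in the 3 types, and 26 to 260 position-by-feeding calls; the 455 came without fed 1. A group left with 1 library is assumed to vary like the other. Of the values for single genes, 457 kept direction and side of the threshold, 13 passed it newly, 3 lost it and 30 changed sign.

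Replicate numbers carry no stated batch. Deviations of same-numbered libraries correlated at 0.668 in hepatocytes, 0.255 in stellate and 0.321 in endothelial nuclei, over 2 pairs. With a replicate block, 2 endothelial genes were called, Cyp26b1 (2.05, adjusted p = 0.00568) and Rbp4 (1.06, adjusted p = 0.0328), and calls over all genes went to 20, 51 and 194 in those types, against 1, 10 and 17.

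No value that changed sign was called as reported. Leaving out single libraries, the fasted over fed log2 values ranged from -0.67 to 0.41 (Stra6l) and -0.14 to 0.40 (Aldh1a7) in hepatocytes, -1.44 to 0.94 (Stra6l) and -1.23 to 0.070 (Aldh1a7) in stellate nuclei, and -0.050 to 1.78 (Rdh16), -1.15 to 0.15 (Stra6l), -0.37 to 0.64 (Aldh1a1) and -1.43 to 0.10 (Aldh1a7) in endothelial nuclei. Position-by-feeding terms ranged from -0.27 to 0.043 (Rbp4), -0.21 to 0.12 (Aldh1a1) and -0.11 to 0.18 (Aldh1a7), and endothelial position from -0.12 to 0.16 (Rdh16) and -0.11 to 0.083 (Aldh1a1). Stellate Stra6l was -0.0027 with RLE scaling, -0.46 in DESeq2 and -0.056 with doublets left in, and endothelial Stra6l 0.26 at resolution 0.5. With stored zeros counted as 1, the Aldh1a1 position-by-feeding term was 0.072, and endothelial position was -0.072 for Rdh16 and 0.055 for Aldh1a1. The Aldh1a7 position-by-feeding term was -0.14 with smaller outer bins and -0.26 with further thinning. The causes were not tested. Fed 2, with 89 stellate and 118 endothelial nuclei, limits the precision in those types.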
